A study of Mus musculus with 6 samples.

Results

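Interferon-stimulated genes and the interferon regulatory factors (Irf) were followed in satellite cells, which renew skeletal muscle. They were chosen by name: every non-control probe whose gene name began with Ifi, Ifit, Ifitm, Oas, Gbp, Irf or Isg and a number, with Oasl and with Mx1 and Mx2. This gave 77 of 55681 probes and 58 of 36406 gene names, and 53 of the 58 genes could be tested. Both groups were male C57BL/6 mice, without a transgene or treatment named in the labels. The young group held 3 samples, aged 3, 2 and 3 months for replicates 1, 2 and 3, and the adult group held 3 samples aged 6 months. In both groups the cells had been sorted for integrin alpha7 and CD34 and against CD31, CD45, CD11b and Sca1, and their RNA was amplified before labelling. The groups were compared to see how expression in uninjured muscle differs with age. The labels call the samples biological replicates but leave the number of animals per sample open. Each sample was read on 1 single-colour array, and p-values measure the spread between these 6 arrays.

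Interferons are secreted proteins that cells release when they sense viral nucleic acid or inflammation. Bound to their receptors, they activate Jak kinases and Stat factors, which join Irf9 and bind the interferon-stimulated response element (ISRE) in front of target genes. Stat pairs, formed after interferon gamma, bind a gamma-activated site (GAS) instead. The targets include enzymes that sense double-stranded RNA (Oas), GTPases that attack intracellular pathogens (Gbp, Mx), proteins that block translation or viral entry (Ifit, Ifitm) and the ubiquitin-like Isg15. The Irf proteins switch on interferon genes and their targets, and some also act in the development of blood cells. In muscle the programme is known from inflammatory muscle disease and from repair after injury.

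The promoters of the members were searched for the ISRE and GAS cores. RefSeq (GRCm38.p6) matched all 58 member genes, and its promoter table held 41 of them. In the 250 bases before the start, the ISRE core GAAANNGAAA, searched on both strands with overlapping matches counted, was present in 15 of the 41 (36.6%), against 3.46% of 27025 genes with a promoter. The GAS core TTCNNNGAA, which reads alike on both strands, was present in 11 of the 41 (26.8%), against 8.13% of the genes. By family, the ISRE core was in 5 of 5 Gbp, 2 of 3 Ifit, 4 of 8 Oas and 1 of 3 Isg genes. It was in 1 of 10 Irf, 1 of 6 Ifi and 1 of 6 Ifitm genes. The 7 promoters shown here were all taken from members with the ISRE core, which is in capitals. Each has 250 bases ending at the start of the gene, read along its strand. Oas1a, Oas1c, Oas3 and Gbp1 were higher in adult cells, whereas Gbp2, Ifit1 and Isg15 did not pass the test.
Oas1a, chr5:120907526-120907775, minus strand: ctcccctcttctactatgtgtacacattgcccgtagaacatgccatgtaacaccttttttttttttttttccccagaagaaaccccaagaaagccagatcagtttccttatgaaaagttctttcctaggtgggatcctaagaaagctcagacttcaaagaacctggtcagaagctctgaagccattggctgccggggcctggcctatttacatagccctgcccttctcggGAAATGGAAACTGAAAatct
Oas1c, chr5:120812515-120812764, minus strand: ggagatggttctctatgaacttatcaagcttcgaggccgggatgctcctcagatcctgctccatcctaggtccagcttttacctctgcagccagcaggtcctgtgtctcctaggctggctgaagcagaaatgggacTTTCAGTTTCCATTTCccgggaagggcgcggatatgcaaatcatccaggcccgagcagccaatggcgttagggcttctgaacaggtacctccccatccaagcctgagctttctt
Oas3, chr5:120777660-120777909, minus strand: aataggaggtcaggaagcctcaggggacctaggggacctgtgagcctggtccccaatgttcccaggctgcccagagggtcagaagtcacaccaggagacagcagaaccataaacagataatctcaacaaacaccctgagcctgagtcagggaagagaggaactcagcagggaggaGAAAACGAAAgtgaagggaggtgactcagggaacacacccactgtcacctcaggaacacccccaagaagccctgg
Gbp1, chr3:142594597-142594846, plus strand: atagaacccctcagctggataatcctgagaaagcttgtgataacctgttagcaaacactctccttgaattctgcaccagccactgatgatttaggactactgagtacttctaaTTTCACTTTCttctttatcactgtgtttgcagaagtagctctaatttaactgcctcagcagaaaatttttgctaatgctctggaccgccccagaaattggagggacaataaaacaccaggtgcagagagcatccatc
Gbp2, chr3:142620413-142620662, plus strand: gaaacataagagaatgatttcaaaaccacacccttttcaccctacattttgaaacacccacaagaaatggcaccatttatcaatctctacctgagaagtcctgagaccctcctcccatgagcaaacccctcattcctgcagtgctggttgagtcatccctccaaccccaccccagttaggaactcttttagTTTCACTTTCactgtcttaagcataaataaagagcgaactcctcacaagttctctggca
Ifit1, chr19:34640639-34640888, plus strand: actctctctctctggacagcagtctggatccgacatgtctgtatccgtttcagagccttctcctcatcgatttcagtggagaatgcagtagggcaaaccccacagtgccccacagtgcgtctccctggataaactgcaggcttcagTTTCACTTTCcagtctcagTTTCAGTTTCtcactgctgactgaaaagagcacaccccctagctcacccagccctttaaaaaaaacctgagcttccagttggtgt
Isg15, chr4:156200819-156201068, minus strand: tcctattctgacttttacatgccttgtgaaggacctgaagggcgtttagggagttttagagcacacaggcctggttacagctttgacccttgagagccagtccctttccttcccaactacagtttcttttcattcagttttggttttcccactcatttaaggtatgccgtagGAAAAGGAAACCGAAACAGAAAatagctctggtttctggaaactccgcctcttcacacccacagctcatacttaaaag
The core lay at position -20 and again at -14 from the start in Oas1a, at -114 and -108 in Oas1c, and at -75 in Oas3. It lay at -137 in Gbp1, at -59 in Gbp2, at -104 and -85 in Ifit1, and at -78, -72 and -66 in Isg15. Of the members with a promoter, 4 of 10 that were higher in adult held the core, and so did 11 of 29 that did not pass the test. The core in these windows was thus about as frequent among members that rose as among those that did not pass. A match describes the letters in the window, not a bound site.

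Of the 53 genes tested, 17 were higher in adult than in young satellite cells (32.1%), against 20.1% of the 32103 genes tested, and 1 was lower (1.89%), against 8.43% of all genes. Of the 17, 9 were Oas genes, and the others included Gbp1, Gbp11, Ifi202b, Ifi27l2b, Ifitm1, Irf4 and Irf5. The lower gene was Irf2bp1. Calls were made with limma at a Benjamini-Hochberg adjusted p of 0.05 over all genes. Levels are given throughout as the log2 signal relative to the 75th percentile of the same array, and differences as adult minus young on this log2 scale. With median scaling, which lowers every difference, 8 members were higher and 3 lower. The median difference of the members was 0.65, against 0.31 for all genes, and 40 of 53 differences were positive. The 3 adult arrays all lay above the 3 young ones for 23 members (43.4%), against 34.0% of all genes, and all below for Irf2bp1, Irf3 and Ifitm2 (5.66%), against 21.6%. Groups apart in either direction were found for 55.5% of all genes. An unadjusted p under 0.05 was reached by 25 members, and by 48.1% of all genes. Leaving out an array moved the count of 17 to 4 without young replicate 1, 11 without young replicate 2, 6 without young replicate 3, 1 without adult replicate 1, and 0 without adult replicate 2 or adult replicate 3. No called gene passed in all 6 of these fits, and Gbp1 passed in 4. Irf2bp1 passed in none of these limma fits, and the 1 lower call made without young replicate 1 was Gbp3 (-1.30, limma adjusted p = 0.0498).

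**Figure D1:**
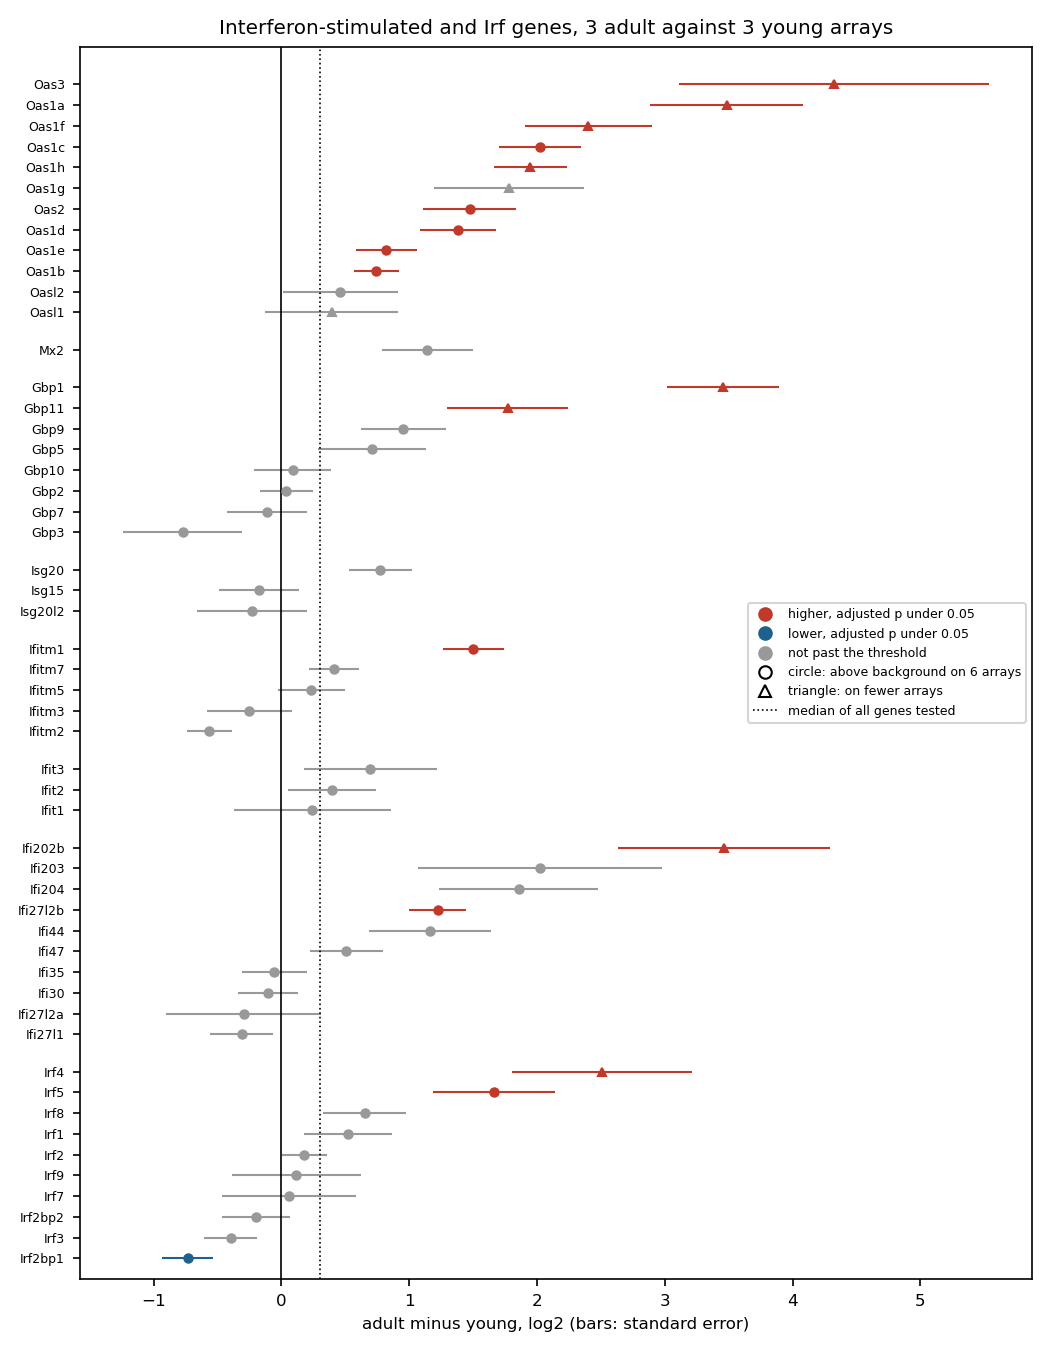
Difference between 3 adult and 3 young arrays (x axis, adult minus young, log2) for 52 of the 53 tested genes, grouped by family, with the standard error as bars. Red marks higher, blue lower and grey genes not past an adjusted p of 0.05. Triangles mark probes above background on fewer than 6 arrays, and the dotted line is the median of all genes at 0.31. The Oas rows at the top hold 9 of the red points.

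More member probes stood well above the local background on each adult array than on any young array. Of the 77 probes, 54, 61 and 61 did so in the young replicates 1 to 3, and 63, 65 and 69 in the adult replicates 1 to 3. In percent the young arrays had 70.1, 79.2 and 79.2 of the member probes, beside 74.6, 82.5 and 77.4 of all probes. The adult arrays had 81.8, 84.4 and 89.6, beside 85.4, 89.4 and 89.7. The Oas probes changed most in number, with 8, 12 and 11 of 16 on the young and 13, 15 and 16 on the adult arrays. The 14 Irf probes numbered 12, 13 and 14 on the young and 13, 13 and 14 on the adult arrays. The 3 Ifit and 7 Isg probes were above background on all 6 arrays, as were 6 of 7 Ifitm probes. Of the 16 Ifi probes, 11, 12 and 11 were above background on the young arrays and 12, 12 and 14 on the adult ones. The 12 Gbp probes gave 6, 7 and 8 on the young arrays and 8 on each adult array. In all, 53 member probes were above background on all 6 arrays and 7 on none. Gbp4, Gbp6, Gbp8, Ifitm6 and Mx1 had no probe that passed the filter of 3 arrays, so they were not tested.

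Active Oas enzymes make an oligoadenylate messenger in answer to double-stranded RNA, but not every gene of the family encodes an active one. The family was higher in adult cells for 9 of its 12 genes, beside 20.1% of all genes. This count goes by gene name and does not measure synthetase activity. All 12 differences were positive, with a median of 1.63, though 10 were with median scaling and 11 with quantile normalization, cyclic loess or the deposited log2 table. The median was 1.09 with median scaling, 0.70 with quantile normalization, 0.75 with cyclic loess or normexp, and 0.36 in the deposited log2 table. Mouse Oas1 to Oas3 lie side by side: the probes of these 10 genes mapped to chr5:121180343-121371654 (build mm9, from the files), a stretch of 191 kb. The Oas-like genes Oasl2 and Oasl1 lay apart, at chr5:115362168-115387920. The 9 genes called all lay in the first stretch, and the tenth gene there, Oas1g, had an adjusted p of 0.064 with limma. Oasl1 (0.39 ± 0.52 SE, adjusted p = 0.561) and Oasl2 (0.46 ± 0.45 SE, adjusted p = 0.435) did not pass. Whether the 2 stretches differ was not tested. The 60-base probes of different Oas genes shared a run of at most 16 bases, between Oas1c and Oas1d. Aligned without gaps, these probes were equal at 42 bases, the most among different Oas genes. Whether a probe reads RNA of another Oas gene was not tested.

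Oas1a, an active synthetase, read -7.16, -4.81 and -6.21 in young replicates 1 to 3, and -2.82, -2.17 and -2.73 in the adult ones. All adult values lay above all young ones, of which only replicate 2 was above background. The difference was 3.48 ± 0.60 SE (limma adjusted p = 0.0223). Oas3, the longest member of the family, read -7.24, -2.81 and -6.69 on the young and -0.36, -2.05 and -1.36 on the adult arrays. Its highest young value, that of replicate 2, lay below the lowest adult one and was the only young value above background. The difference was 4.33 ± 1.21 SE (limma adjusted p = 0.0454), and it ranged from 3.50 to 5.71 when single arrays were left out. Where young values are not above background they have no reliable level, so the size of these differences is uncertain.

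Oas1c was above background on all 6 arrays, at -2.35, -1.41 and -1.81 in young and 0.49, 0.23 and -0.21 in adult cells. The groups were clearly apart, with a difference of 2.02 ± 0.32 SE (4.06-fold, limma adjusted p = 0.0204). Oas1d, a form known from the ovary, was also above background throughout, at 1.93, 1.57 and 1.72 in young and 3.64, 3.09 and 2.64 in adult cells. It differed by 1.38 ± 0.30 SE (2.61-fold, limma adjusted p = 0.0286). Oas2 read -4.58, -4.17 and -4.53 in young and -3.56, -3.05 and -2.25 in adult cells, again above background on all 6 arrays and without overlap. Its difference was 1.47 ± 0.36 SE (2.78-fold, limma adjusted p = 0.0356). Oas1e was 1.77-fold higher (0.82 ± 0.24 SE, limma adjusted p = 0.0479). Oas1f (2.40 ± 0.50 SE) and Oas1h (1.95 ± 0.29 SE) were also higher, with limma adjusted p of 0.0276 and 0.0187, and each was above background on 2 of 3 young and 3 of 3 adult arrays. Oas1g, which passed the filter in the same way, read -5.77, -3.72 and -3.71 in young and -2.37, -2.78 and -2.71 in adult cells. Its groups did not overlap either, and the distance of young replicate 1 from the other young arrays widened the spread.

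Oas1b, known for flavivirus resistance in resistant mouse strains only, was represented by a probe that shares a run of 16 bases with the promoters of 78 other genes. Whether the probe reads RNA of those genes was not tested. A 30-base stretch of that probe is shown because the level of Oas1b rests on it.
Oas1b probe stretch: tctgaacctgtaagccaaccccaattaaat
The probe read 6.80, 6.80 and 6.50 in young and 7.46, 7.38 and 7.49 in adult cells, a difference of 0.74 ± 0.18 SE (limma adjusted p = 0.0344). A second Oas1b probe that shares no such run read 3.30, 3.50 and 3.41 in young and 4.50, 4.23 and 4.46 in adult cells. Its difference was 0.99 ± 0.19 SE (limma adjusted p over probes 0.0274). Both probes therefore gave higher values on every adult array than on any young one. Among the 77 member probes, only this probe and one of Ifitm7 shared a run with the promoters of 10 or more other genes, against 1.54% of all probes.

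**Figure D2:**
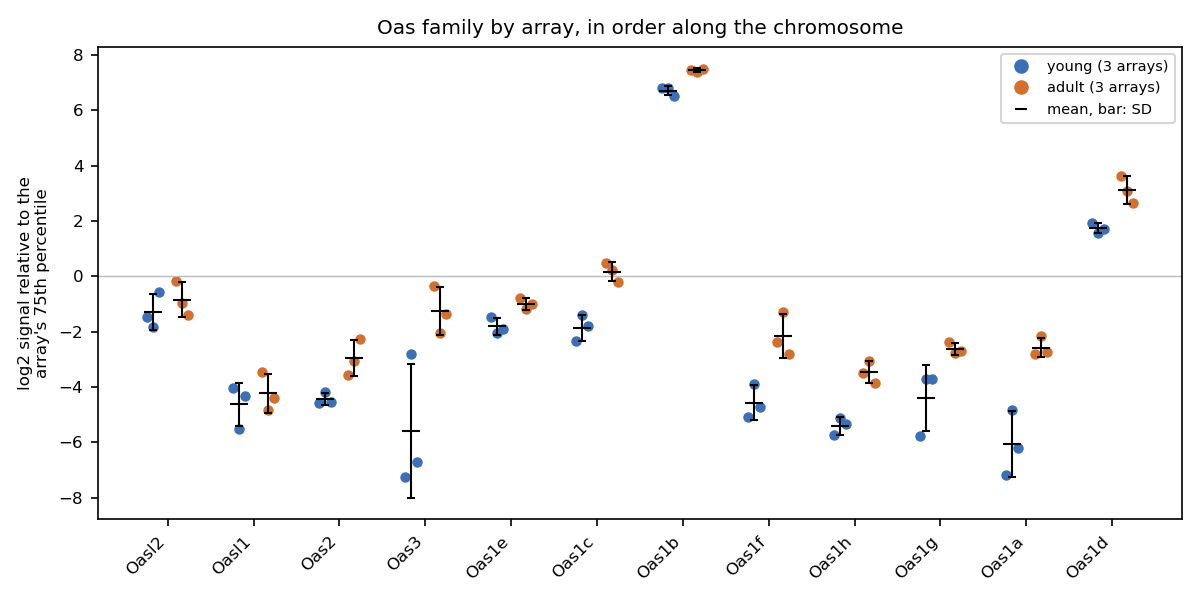
Level of the 12 Oas genes on each array (y axis, log2 signal relative to the array's 75th percentile), in order along chromosome 5, with young arrays in blue and adult arrays in orange. Horizontal marks are group means and bars the SD of 3 arrays. The groups overlap for Oasl2 and Oasl1, and the adult arrays lie above the young ones for the other 10 genes, beside 34.0% of all genes. Heights of different genes are not comparable because each probe has its own brightness.

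Of 11 Irf genes tested, with the Irf2 partners Irf2bp1 and Irf2bp2 among them, 3 were higher in adult cells (beside 20.1% of all genes), 1 was lower and 7 did not pass, with a median difference of 0.18, below the 0.31 of all genes. Irf4, which drives plasma cell and T cell programmes, read -6.55, -5.36 and -4.02 in young and -2.23, -3.62 and -2.55 in adult cells. It differed by 2.51 ± 0.70 SE (limma adjusted p = 0.0456) and was above background on 1 of 3 young arrays. Irf5, a factor of myeloid cells downstream of Toll-like receptors, read -2.39, -3.83 and -2.72 in young and -1.97, -1.19 and -0.78 in adult cells. It was above background on all 6 arrays and 3.17-fold higher (1.67 ± 0.48 SE, limma adjusted p = 0.0478).

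Irf9, Irf7, Irf1, Irf2, Irf3 and Irf8 did not pass the test. Irf9, which joins Stat factors, read -0.54, 0.18 and 0.78 in young and 1.01, 0.32 and -0.56 in adult cells. The groups overlapped over almost their whole range, and the difference was 0.12 ± 0.51 SE (limma adjusted p = 0.862). Irf7, the main amplifier of interferon alpha genes, read -1.64, -2.31 and -0.95 in young and -0.68, -1.78 and -2.27 in adult cells, with a difference of 0.06 ± 0.52 SE (limma adjusted p = 0.934). Irf1, an early activator, differed by 0.52 ± 0.34 SE (limma adjusted p = 0.258) and its antagonist Irf2 by 0.18 ± 0.18 SE (limma adjusted p = 0.437). Under other scalings the sign of these differences turned: with median scaling, which moved the median of all genes from 0.31 to -0.23, Irf1 was at -0.02, Irf2 at -0.36, Irf7 at -0.48 and Irf9 at -0.42. Irf3, the constitutive factor behind the first wave of interferon beta, read 1.69, 1.84 and 1.85 in young and 1.58, 1.51 and 1.09 in adult cells. All adult values were below all young ones, by -0.40 ± 0.20 SE on average (limma adjusted p = 0.168). Irf8, a myeloid factor, read 0.50, 1.26 and 1.62 in young and 1.86, 1.87 and 1.60 in adult cells, and its groups touched (0.65 ± 0.32 SE, limma adjusted p = 0.154). Irf2bp1, a co-repressor that binds Irf2, fell from 1.60, 1.54 and 1.44 to 1.07, 0.68 and 0.63 (-0.73 ± 0.20 SE, limma adjusted p = 0.042).

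**Figure D3:**
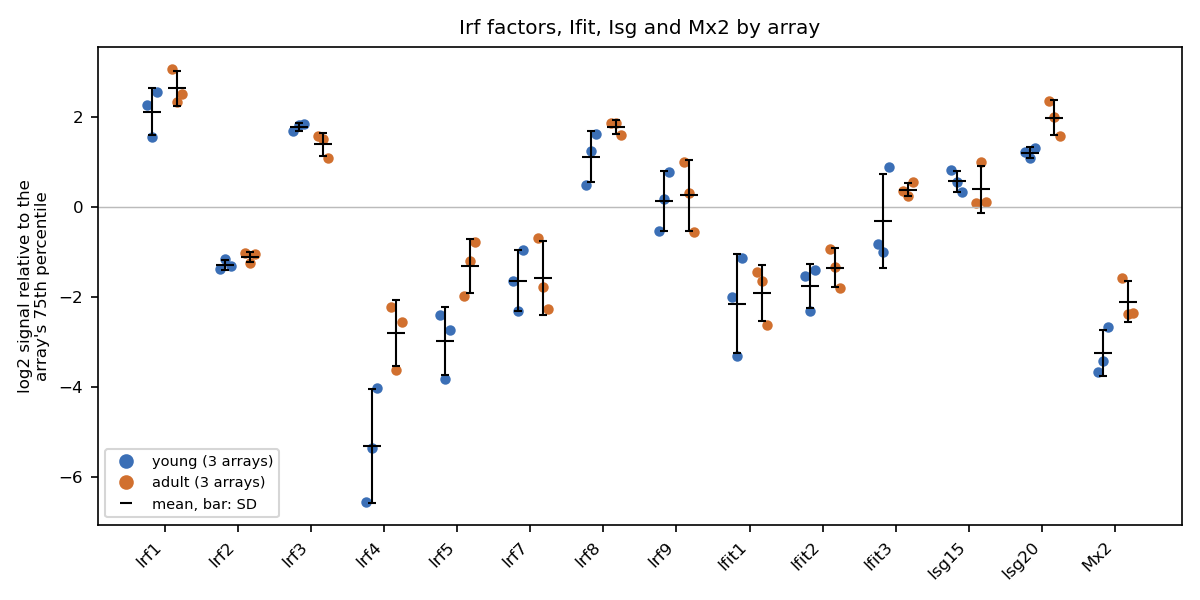
Level of 8 Irf genes, the Ifit genes, Isg15, Isg20 and Mx2 on each array (y axis, log2 signal relative to the array's 75th percentile), young in blue and adult in orange. Marks are group means and bars the SD of 3 arrays. Irf4 and Irf5 have groups apart, while Irf7, Irf9, Ifit1, Ifit2 and Isg15 overlap.

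Blood cells are known to express Irf4 and Irf5, and markers of these and other cell types were read on the same arrays. Of 16 myeloid markers 12 were tested and 3 were called higher (Cd14, Tyrobp and Emr1), beside 20.1% of all genes. Their median difference was 0.52, but -0.02 with median scaling and 0.0039 with quantile normalization. All 12 differences were positive, though only 6 were with median scaling or quantile normalization and 8 with cyclic loess or in the deposited log2 table. Their summed linear level, in multiples of the 75th percentile and without Itgam, whose probe shares a repeated run, was 8.91 to 10.6 on young and 13.2 to 14.7 on adult arrays. Tyrobp, an adaptor of myeloid receptors, was above background on no young and on 3 adult arrays. Ptprc, which encodes the CD45 used to remove blood cells, was above background on all 6 arrays and differed by 0.49 ± 0.34 SE (limma adjusted p = 0.278). Of 7 lymphoid markers tested, 6 were positive and 4 higher, among them Nkg7, Cd4 and Cd79a, beside 20.1% of all genes. The Cd4 probe shares a run of 16 bases with the promoters of 13 other genes. With repeat-bearing probes left out 3 lymphoid markers were higher, and with median scaling 1 was. Without Cd4 the summed level was 1.50 to 1.80 on young and 2.90 to 3.12 on adult arrays. All 10 satellite cell markers were above background on all 6 arrays, none was higher, and Cdh15, Calcr, Vcam1 and Itga7 were lower, beside 8.43% of all genes. With median scaling 7 of these markers were lower, and with quantile normalization 2. Their summed level was 152 to 170 on young and 115 to 150 on adult arrays. All 4 erythroid markers were positive, with a median of 1.65; limma called none, 1 had an unadjusted p under 0.05, and the summed level was 1.45 to 68.2 on young and 44.5 to 72.6 on adult arrays. The mural list had 4 of 8 genes higher and 1 lower, beside 20.1% and 8.43% of all genes. Its summed level was 42.9 to 58.9 on young and 38.5 to 43.8 on adult arrays. The fibro-adipogenic list had 2 of 7 higher and 2 lower, beside the same shares of all genes, with summed levels of 71.6 to 80.0 and 28.9 to 43.7. Of 8 endothelial markers 2 were positive, limma called none, 1 had an unadjusted p under 0.05, and the summed levels were 17.8 to 28.1 and 17.8 to 25.1. The part of these shifts in the differences of the interferon genes was not tested, and in sorted bulk samples more cells of a type and more RNA per cell cannot be told apart.

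The guanylate-binding proteins, GTPases of the response to interferon gamma, had 2 of 8 tested genes higher, Gbp1 and Gbp11 (beside 20.1% of all genes), and a median difference of 0.40. Gbp1, named Gbp2b in RefSeq, read -6.48, -7.42 and -7.68 in young and -4.31, -3.79 and -3.11 in adult cells. No young array was above background, so only a bound is given. With the scaling used, the adult mean of Gbp1 was at least 3.12-fold higher (limma adjusted p = 0.0157). Such a bound sets the adult mean against the lowest signal counted as above background on each young array. It leaves out the error of that mean and holds for this processing only. Over 20 other fits, arrays left out included, the Gbp1 difference ranged from 0.35 to 3.82 and passed in 15 (highest limma adjusted p 0.152). A second Gbp1 probe was above background on none of the 6 arrays. Gbp11 was higher by 1.77 ± 0.47 SE (limma adjusted p = 0.0417) and above background on 2 of 3 young arrays. The other 6 ranged from -0.77 (Gbp3, adjusted p = 0.227) to 0.95 (Gbp9, adjusted p = 0.0724). Gbp2, a classical target of interferon gamma, stood at -1.35, -1.56 and -1.07 in young and -1.12, -1.36 and -1.38 in adult cells, with the groups interleaved (0.04 ± 0.21 SE). All 5 Gbp genes with a promoter in the table held the ISRE core. Gbp10 was at 0.09 ± 0.30 SE, and this sign turned with median scaling, with normexp background and in the deposited log2 table.

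Among the Ifi genes 2 of 10 were higher, beside 20.1% of all genes. Ifi202b, a DNA-binding protein of the Aim2 family, read -6.04, -4.46 and -7.77 in young and -2.92, -2.96 and -2.01 in adult cells. It differed by 3.46 ± 0.83 SE (limma adjusted p = 0.0339) with 1 of 3 young arrays above background. A second Ifi202b probe was above background on none of the 6 arrays. That probe read -7.23, -7.55 and -7.77 in young and -6.88, -7.15 and -7.41 in adult cells. The relatives of Ifi202b on the same chromosome segment, Ifi203 (2.03 ± 0.96 SE) and Ifi204 (1.86 ± 0.62 SE), were also positive. They did not pass, with limma adjusted p of 0.141 and 0.0663. For Ifi203, 3 probes passed the filter, and 1 of them, not the one used for the gene, gave 1.65 ± 0.31 SE (limma adjusted p over probes 0.0269). Ifi27l2b, a small hydrophobic protein, was above background on all 6 arrays, at -0.86, -0.78 and -1.19 in young and 0.29, 0.53 and 0.01 in adult cells. Its groups were apart, with a 2.33-fold difference (1.22 ± 0.22 SE, limma adjusted p = 0.0243). A second Ifi27l2b probe was above background on none of the 6 arrays. The neighbours of Ifi27l2b in the name family did not follow: Ifi27l2a was at -0.29 ± 0.61 SE and Ifi27l1 (Ifi27 in RefSeq) at -0.31 ± 0.25 SE. Ifi44, Ifi47, Ifi35 and Ifi30 gave 1.16, 0.51, -0.06 and -0.11 and did not pass.

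Of the Ifitm genes, which keep viruses from entering the cell through its membranes, only Ifitm1 of 5 tested was called. It read -2.70, -2.51 and -2.23 in young and -0.70, -1.26 and -0.97 in adult cells, all above background, and was 2.83-fold higher (1.50 ± 0.23 SE, limma adjusted p = 0.0202). Ifitm2 went the other way without overlap, at 3.58, 3.67 and 3.55 in young and 3.12, 3.12 and 2.87 in adult cells, and missed the threshold (-0.56 ± 0.17 SE, limma adjusted p = 0.0558). Ifitm3, the best studied member, was at -0.25 ± 0.33 SE and Ifitm5, a bone protein, at 0.23 ± 0.26 SE. Ifitm7 gave 0.41 ± 0.20 SE (limma adjusted p = 0.146) from a probe that holds a simple repeat, shown here because the brightest-probe rule picked it.
Ifitm7 probe stretch: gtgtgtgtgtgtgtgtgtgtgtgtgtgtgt
That probe shares a run of 16 bases with the promoters of 151 other genes. The other Ifitm7 probe read 3.42, 3.78 and 3.04 in young and 4.95, 4.74 and 5.01 in adult cells. With repeat-bearing probes left out, a choice made after the data were seen, Ifitm7 was higher in adult cells (1.49 ± 0.24 SE, limma adjusted p = 0.0215).

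The genes most often used to score an interferon response did not pass. Ifit1, which binds viral RNA lacking a host cap, read -2.0, -3.31 and -1.13 in young and -1.44, -1.65 and -2.62 in adult cells, a full overlap (0.24 ± 0.61 SE, limma adjusted p = 0.766). Ifit2 was at 0.40 ± 0.35 SE and Ifit3 at 0.70 ± 0.52 SE, with limma adjusted p of 0.382 and 0.313. Isg15, the ubiquitin-like modifier, read 0.82, 0.56 and 0.34 in young and 0.09, 1.0 and 0.11 in adult cells (-0.17 ± 0.31 SE, limma adjusted p = 0.67). Isg20, an exonuclease that degrades RNA, read 1.22, 1.09 and 1.32 in young and 2.36, 2.01 and 1.59 in adult cells, and its groups were apart (0.77 ± 0.25 SE, limma adjusted p = 0.0602). A second Isg20 probe gave -0.0040 ± 0.42 SE. Isg20l2, a nucleolar exonuclease, had 3 probes at -0.69, -0.23 and 0.08. Mx2, named for a GTPase, read -3.66, -3.42 and -2.67 in young and -1.58, -2.37 and -2.36 in adult cells. Its groups did not overlap (1.14 ± 0.36 SE, limma adjusted p = 0.0575). None of the 7 Ifit, Isg and Mx genes tested was called, and 2 of them, Isg20 and Mx2, had an unadjusted p under 0.05. A miss of the threshold with 3 arrays a group does not show that the levels were alike.

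Dim genes of all kinds tended to read higher on the adult arrays, so the members were set beside all genes of the same brightness, in 4 bins of equal size by mean level. In the dimmest bin, where 32.0% of all genes were higher, 8 of the 9 members called higher (all but Oas2) were not above background on every young array. They met the filter with the help of the adult arrays, so nothing is read from their number. In the next bin 4 of 14 members were higher (28.6%, against 23%), with medians of 0.98 and 0.56. In the third bin these were 2 of 14 (14.3%, against 14.8%), with medians of 0.21 and -0.05. In the brightest bin 2 of 13 were higher (15.4%, against 10.3%) and Irf2bp1 was lower (18.9% of all genes were), with medians of -0.11 and -0.31. Of the 5 Oas genes outside the dimmest bin 4 were higher (Oas1b, Oas1c, Oas1d and Oas1e), and of the 36 other members there 4 were. Of all genes in those bins 23%, 14.8% and 10.3% were higher, from dimmer to brighter. Of the 17 genes called higher, 9 were above background on all 6 arrays. With the test limited to probes above background on all 6 arrays, 5 of 6 Oas genes and 7 of 37 other members were higher, against 20.6% of all genes.

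**Figure D4:**
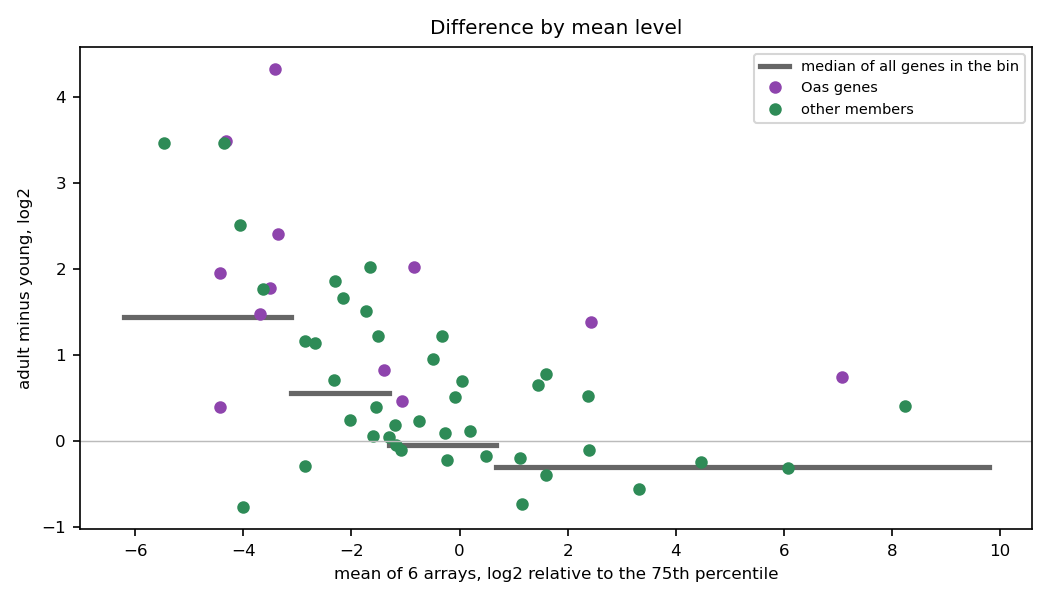
Difference (y axis, adult minus young, log2) against the mean of 6 arrays (x axis, log2 signal relative to the 75th percentile) for the 53 member genes, with Oas genes in purple and the others in green. Grey lines give the median difference of all genes in each of 4 bins of level, from 1.44 in the dimmest to -0.31 in the brightest. Among members in the 2 brightest bins, Oas1c and Oas1d have the largest differences.

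Outside the Oas family 8 of 41 members were higher (19.5%), which is close to the 20.1% of all genes. The Oas share was 75%. Both shares count genes that met the filter with the help of the adult arrays, so nothing is read from them alone. Under 15 other settings of the processing, not counting arrays left out, the Oas share exceeded the share of all genes in 14. The share of the other members did so in 6. These settings reuse the same 6 arrays, and most keep the same filter, so they are not independent of each other. The exception for Oas was the fit with the replicate number as a block, in which no gene of any kind was called. Without adult replicate 1, 2 or 3 no Oas gene passed, and without young replicates 1, 2 and 3 the counts were 3, 6 and 2, while all genes were called higher in 0.819% to 20.03%. All 12 Oas differences remained positive when any array was left out, except for 1 gene without young replicate 2.

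**Figure D5:**
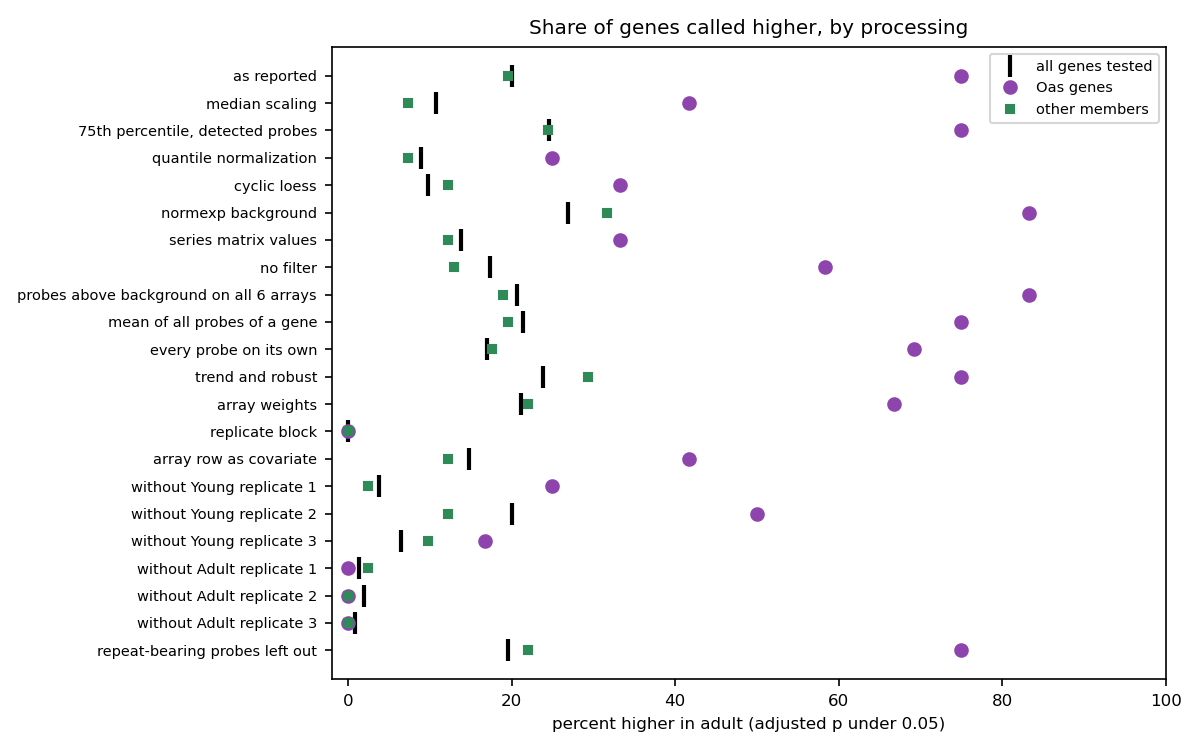
Percent of genes called higher in adult (x axis) under each way of processing (rows), for 12 Oas genes (purple), other members (green) and all genes tested (black bars). Oas points run from 0% to 83.3%, and in most rows the green squares lie near the black bars.

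The rest of the interferon pathway was read from lists of ligands, receptors, signal proteins, inhibitors, sensors and other effectors. Of 108 such genes on the array 101 were tested, 12 were higher (11.9%, against 20.1% of all genes) and 2 lower (1.98%, against 8.43%), with a median difference of 0.15. Without young replicate 1 there were 1 higher, without young replicate 2 there were 11, without young replicate 3 there were 2, and without any adult replicate there were 0. The lower calls were 1 without young replicate 2 and 0 without any of the other arrays. Of 14 interferon ligand genes tested 6 were higher, with a median difference of 1.15. All 14 were positive, though only 11 were with median scaling or cyclic loess, and 10 with quantile normalization or in the deposited log2 table. Ifna12 read -2.92, -2.23 and -2.58 in young and -1.32, -1.23 and -0.93 in adult cells, above background throughout and apart (1.42 ± 0.25 SE, limma adjusted p = 0.0224). Ifnab was higher by 1.12 ± 0.26 SE and Ifna7 by 2.53 ± 0.60 SE (limma adjusted p = 0.0317 and 0.0332). Ifna2 and Ifna13 were also called, at 2.82 ± 0.78 SE and 1.17 ± 0.30 SE (limma adjusted p = 0.0441 and 0.0374), but Ifna13 was at -0.04 with quantile normalization or cyclic loess and at -0.012 in the deposited log2 table. Ifne, the interferon of the female reproductive tract, was not above background on any young array. With the scaling used, its adult mean was at least 3.96-fold higher (limma adjusted p = 0.0224). The Ifne difference was 0.95 with normexp and 0.49 in the deposited log2 table (limma adjusted p = 0.0131 and 0.0739). Ifna7 and Ifna2 were each above background on 2 of 3 young and 3 of 3 adult arrays. Ifne, Ifna7 and Ifna2 thus met the filter with the help of the adult arrays, so nothing is read from the number of ligands called. Ifnb1 gave 0.35 ± 0.47 SE (limma adjusted p = 0.563). The Ifna genes are near-identical copies without introns, so a probe may read more than 1 of them, which was not tested.

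Among the receptors Ifnar1, a chain of the receptor for interferons alpha and beta, fell by 0.79 ± 0.18 SE (limma adjusted p = 0.0315), and 4 of 5 receptor genes were negative. Its other probes gave -0.065 and -0.63 and did not pass. The Ifnar1 call held with median scaling (-1.33, limma adjusted p = 0.0127) and with quantile normalization (limma adjusted p = 0.0478). It was lost with the mean of its probes (-0.50, limma adjusted p = 0.103), with cyclic loess (0.0715) and with normexp (0.105). It was also lost in the deposited log2 table (-0.35, limma adjusted p = 0.216), and without any 1 array (limma adjusted p 0.0565 to 0.0825). Of the signal genes, Stat2 was at 0.15 ± 0.33 SE and did not pass. None of 9 inhibitors was called by limma at the adjusted threshold; Ptpn6, Ptpn11 and Trex1 had an unadjusted p of 0.0302, 0.0306 and 0.0352, and Usp18, a target that silences the receptor, was at 0.17 ± 0.32 SE. Of 16 nucleic acid sensors Tlr8 (1.16 ± 0.22 SE) and Tlr9 (0.75 ± 0.21 SE) were higher, with limma adjusted p of 0.0251 and 0.0449. Neither passed with median scaling (limma adjusted p = 0.0556 and 0.452). Tlr8 also missed with quantile normalization (0.151), with cyclic loess (0.110) and in the deposited log2 table (0.437), where Tlr9 passed. The cytosolic RNA sensors Ddx58 and Ifih1 were at -0.19 ± 0.24 SE and -0.24 ± 0.22 SE. Of 25 other antiviral effectors Herc6, a ligase that attaches Isg15 in mice, was higher (1.81 ± 0.44 SE, limma adjusted p = 0.0347). Herc6 did not pass with median scaling (1.27, limma adjusted p = 0.0683), nor did its second probe (0.82, limma adjusted p over probes 0.148). Rsad2, Bst2 and Eif2ak2, common markers of an interferon response, were at -0.15 ± 0.26 SE, 0.24 ± 0.34 SE and -0.39 ± 0.39 SE.

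None of the 7 immunity-related GTPases was called by limma, with Irgm1 closest (0.59 ± 0.19 SE, adjusted p = 0.0635) and 2 of them, Irgm1 and Tgtp1, at an unadjusted p under 0.05. Of 14 genes of antigen presentation by class I molecules, Psme2, a proteasome activator subunit, was lower (-0.91 ± 0.20 SE, limma adjusted p = 0.03), but of its other probes 1 gave -0.79 and 1 gave 1.39. Of 5 interferon-induced chemokines Ccl2 (0.95 ± 0.21 SE) and Cxcl9 (1.06 ± 0.24 SE) were higher, with limma adjusted p of 0.0288 and 0.032. Neither passed with median scaling (limma adjusted p = 0.204 and 0.115). Ccl2 also missed with quantile normalization (0.0837) and cyclic loess (0.0546), where Cxcl9 passed. A second Cxcl9 probe gave 1.55 and did not pass (limma adjusted p over probes 0.178). Apart from the ligands, 6 of 87 pathway genes were higher (6.90%) and 2 lower (2.30%).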

How the data were processed

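The 6 arrays were read with Feature Extraction 10.7.3.1 and annotated on mm9, per the file headers. Per the file headers, the intensity deposited for each spot had its background subtracted and spatial trend removed, with no scaling between arrays. The log2 values deposited as a matrix differed by at most 0.000106 from quantile-normalized, normexp-corrected (offset 50) spot signals, so its scale, centring and direction were settled, with a median of 7.56 in each column. All arrays lay on 1 slide scanned once, and no spot was saturated.

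Control and outlier spots were left out and spots of a probe averaged. Processed signals were taken to log2 and centred on the 75th percentile of their array. A probe had to be well above background on 3 or more of the 6 arrays, and the kept probe with the highest mean stood for its gene. The groups were compared with limma 3.58.1 (lmFit, eBayes) in R 4.3.3, with the package data.table (version 1.17.8), adjusting over all 32103 genes. In simulated arrays with 200 changed genes of 32082, changes of 1, 2 and 4 log2 units were recovered in 0%, 50.0% and 86.4%, and with 9000 changed genes in 53.6%, 88.6% and 98.6%. The number of arrays limits the precision.

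The members and gene lists were chosen with earlier results of these data known. Named were members called, the Irf factors, those with the highest level or largest differences of each family, members whose probes disagreed in sign, and up to 4 pathway genes per list with the smallest p. Usp18, Rsad2, Bst2, Eif2ak2, Stat2, Ifnb1, Ddx58, Ifih1, Ptprc, Gbp2, Ifit1, Ifit2, Isg15 and other members not covered by that rule were added with their values already seen. Counts cover all genes tested, and a few single genes are not reported here. Replicate numbers did not pair samples: deviations of the same number correlated at -0.0039, -0.093 and -0.14. Probe runs of 16 bases were compared with RefSeq promoters (GRCm38.p6). Alternatives covered scaling, background, filters, probe choice, variance, weights, blocks and arrays left out.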

Additional observations from a re-analysis of the deposited data

Results flagged for a closer look

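Probes that did not enter the fit, because they were well above background on fewer than 3 arrays, gave signal on adult arrays and on 0 of 3 young arrays for 5 genes. The second probe of Oas1a was above background on 2 of 3 adult arrays, and so was that of Oas1g, also on 2 of 3. The second probe of Oas1h was above background on 1 adult array, as was a further probe of Ifi203, on 1, and the second probe of Ifi204, on 1. Probes were listed here only if they had signal on adult and not on young arrays, so the list cannot show the opposite. Outside it, second probes of Gbp1, Ifi202b and Ifi27l2b, which were called higher, were above background on none of the 6 arrays. The Oas1a probe read -7.15, -7.30 and -5.73 in young and -4.86, -3.75 and -4.21 in adult cells. The Oas1g probe read -6.84, -7.61 and -6.04 in young and -4.94, -5.16 and -5.10 in adult cells. All adult arrays also had more probes of any kind above background than the young arrays, and the part of this in these signals was not tested.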

How the results depend on the processing

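With 17 members higher and 1 lower, 9 Oas genes, 8 other members, and 12 and 2 pathway genes as reported, the counts moved as follows. Median scaling gave 8 and 3 members, 5 Oas, 3 others, and 3 and 14 pathway genes, with a member median of 0.11. Quantile normalization gave 6 members, 3 Oas, 3 others and 6 pathway genes higher. Cyclic loess gave 9, 4 and 5, and 7 and 1 pathway genes. The deposited log2 table gave 9, 4 and 5, with 5 pathway genes lower and a member median of 0.23. Normexp background gave 13 other members higher, 2 members and 6 pathway genes lower. The 75th percentile over detected probes gave 0 members lower and 20 pathway genes higher. No filter gave 0 members lower. Probes above background on all 6 arrays gave 5 Oas genes of 6, 2 members and 4 pathway genes lower, and a median of 0.41. The mean of probes gave 1 pathway gene lower. Trend and robust gave 2 members and 6 pathway genes lower. The array row gave 10 and 0 members, 5 Oas, 5 others, and 7 and 0 pathway genes. The replicate block, although the numbers did not pair the samples, gave 0 members higher and 0 lower, 0 Oas, 0 others, and 0 and 0 pathway genes by limma, with 23 members at an unadjusted p under 0.05.

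With arrays left out, members higher ranged from 0 to 11 and lower from 0 to 1, Oas genes from 0 to 6, others from 0 to 5, and pathway genes from 0 to 11 higher and 0 to 1 lower. The member median ranged from 0.49 to 0.77. Signs turned for Gbp10 (-0.15 to 0.28), Irf7 (-0.39 to 0.41), Irf9 (-0.26 to 0.53) and Isg20l2 (-0.63 to 0.043).

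Signs turned under median scaling for Gbp10 (-0.45), Ifitm7 (-0.13), Irf1 (-0.018), Irf2 (-0.36), Irf7 (-0.48) and Irf9 (-0.42). They turned under quantile normalization for Irf2 (-0.13) and Irf7 (-0.35), and under cyclic loess for Irf7 (-0.20). In the deposited log2 table they turned for Gbp10 (-0.074) and Irf7 (-0.11), and with normexp for Gbp10 (-0.0093). The median of all genes was 0.31 as reported, -0.23 with median scaling, 0.45 over detected probes, -0.06 with quantile normalization, 0.04 with cyclic loess, 0.25 with normexp and -0.01 in the deposited table, and the cause of the differences was not tested. By the scanner's test of positive and significant signal, 64, 66 and 70 member probes were detected on young replicates 1 to 3, and 69, 72 and 75 on adult replicates 1 to 3, so the groups overlap. Dim genes limit the result, since 8 of the 18 genes called were not above background on all 6 arrays.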
